A study of Mus musculus with 134 samples.

Results

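A set of 9 autosomal genes whose signal fell into an upper and a lower level of similar size was examined across 134 mammary tumors of a mouse backcross. They were D17H6S56E-5, Slc37a1, Pot1b and Zfp119b on chromosome 17, Tnfsf10 on chromosome 3, 3110040N11Rik on chromosome 7, Acyp1 on chromosome 12, F13a1 on chromosome 13 and Apobec3 on chromosome 15. These 9 of 19938 measured genes were taken by name, each through the probe set with its symbol alone and, for Apobec3, the brighter of 2 such probe sets. They had been chosen by the spread of their log2 values over these same tumors, selected on 2 separate levels with about an even share of tumors each, so the levels, their shares and their distances are given as a description and were not tested.

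The tumors came from N2 females that carried the MMTV-PyMT transgene, a polyoma virus middle T antigen driven by the promoter of mouse mammary tumor virus, which is active in mammary epithelium. All animals had 1 background in the labels, MOLF/Ei x PyMT, so the series held a single group with no control and no treatment. MMTV-PyMT males were mated to females of the wild-derived strain MOLF/EiJ, and PyMT-positive F1 males of that mating to FVB/NJ females. The tumors were harvested near the humane endpoint, and no ages were given.

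In such a backcross, every autosomal locus of an N2 animal holds either FVB alleles alone or an FVB allele beside a MOLF allele, and alleles that lie close together on a chromosome are passed on together until a crossover parts them. A gene whose transcript amount depends on its own allele is said to be controlled in cis. An array probe set reads both the amount of a transcript and how well its probes pair with it, so RNA amount and sequence differences under the probes cannot be told apart by signal alone. Genotypes were not analysed here, and which allele belonged to which level was therefore not tested.

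The genes have unrelated roles. Tnfsf10 (TRAIL) is a death ligand of the tumor necrosis factor family. F13a1 encodes the A subunit of coagulation factor XIII, a transglutaminase that crosslinks fibrin and is made by macrophages and the platelet lineage. Apobec3 is a cytidine deaminase that restricts retroviruses, mouse mammary tumor virus among them. Pot1b binds the single-stranded end of telomeres as part of the shelterin complex and, in rodents, stands beside a sister gene, Pot1a. Slc37a1 exchanges glucose 6-phosphate for phosphate across the membrane of the endoplasmic reticulum, Acyp1 is an acylphosphatase and Zfp119b a zinc finger protein. D17H6S56E-5 lies in the major histocompatibility complex (MHC) and is given no role here, and neither is 3110040N11Rik.

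The 4 genes of chromosome 17 were the only members that shared a chromosome. The 250 bases before their start sites are therefore shown, from the RefSeq promoter table of build GRCm38.p6, where all 4 were found. In gene order they were Slc37a1 (chr17:31295974-31296223, plus strand), D17H6S56E-5 (chr17:35000747-35000996, minus strand), Pot1b (chr17:55712637-55712886, minus strand) and Zfp119b (chr17:55949501-55949750, minus strand). Each window is written 5′ to 3′ on the strand of its gene, up to the base before the start. Pot1b and Zfp119b had 2 starts each in the table, and the first listed was taken. Capitals mark the TATA box, searched as TATAAA, the CCAAT box, searched by that name, and the GC box, searched as GGGCGG, on both strands.
Slc37a1: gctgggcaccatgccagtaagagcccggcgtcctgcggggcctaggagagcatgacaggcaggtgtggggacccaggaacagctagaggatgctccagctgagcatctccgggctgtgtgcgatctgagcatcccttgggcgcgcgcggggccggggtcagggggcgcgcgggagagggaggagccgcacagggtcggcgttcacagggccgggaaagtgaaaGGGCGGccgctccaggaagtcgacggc
D17H6S56E-5: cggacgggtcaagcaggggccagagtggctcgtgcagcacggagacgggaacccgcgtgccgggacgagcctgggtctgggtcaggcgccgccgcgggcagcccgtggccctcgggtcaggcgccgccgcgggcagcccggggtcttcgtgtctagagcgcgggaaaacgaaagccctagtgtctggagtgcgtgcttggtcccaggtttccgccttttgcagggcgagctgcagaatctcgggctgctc
Pot1b: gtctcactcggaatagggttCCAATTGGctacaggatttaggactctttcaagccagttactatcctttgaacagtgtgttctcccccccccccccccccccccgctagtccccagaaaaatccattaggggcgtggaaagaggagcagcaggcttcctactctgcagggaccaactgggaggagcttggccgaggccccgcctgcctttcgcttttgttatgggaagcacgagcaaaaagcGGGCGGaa
Zfp119b: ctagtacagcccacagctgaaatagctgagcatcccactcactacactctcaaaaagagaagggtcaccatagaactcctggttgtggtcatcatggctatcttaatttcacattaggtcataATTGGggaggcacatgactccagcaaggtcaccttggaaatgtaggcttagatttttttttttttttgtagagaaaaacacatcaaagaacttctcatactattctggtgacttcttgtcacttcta
TATAAA was in none of the 4 windows and in 12.4% of all 32851 windows of this length. CCAAT was found 2 times in the window of Pot1b, on opposite strands of the same stretch, and 1 time in that of Zfp119b, while 33.8% of all windows held it. GGGCGG was found 1 time each in those of Slc37a1 and Pot1b and was in 32.7% of all windows. No motif of the 3 was shared by all 4 genes. The share of G and C was 69.6% for Slc37a1, 70.4% for D17H6S56E-5, 56.8% for Pot1b and 40.4% for Zfp119b.

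Signal is given as the deposited log2 value, on which a difference of 1 means a doubling. It was measured on Mouse Gene 1.0 ST arrays, 1 array and 1 animal per tumor by the labels. Array medians lay between 6.30 and 6.54. A floor was set at 5.72, the 95th percentile of the mean signal of 1190 olfactory and vomeronasal receptor genes. The epithelial markers averaged 9.48 to 11.42 and the skeletal muscle markers 6.33 to 12.42, whereas those of T and NK cells averaged 5.24 to 6.91, near the floor. In bulk tumor RNA, fewer cells of a type and less RNA per cell cannot be told apart. The label numbers 1 to 106 and 107 to 134 formed 2 runs, in each of which the animal IDs ascended. An earlier description of these data gave arrays 109 to 120 as alike to arrays 97 to 108 in the same order. No value of that likeness over all genes is given here. The fits were also run without arrays 109 to 120 for all 9 genes, and a part of those values is given.

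A mixture of 2 normal distributions with a common SD was fitted to the values of each gene. The separation is the distance between both means divided by that SD, and a tumor had the upper level when its probability of it was over 0.5. D17H6S56E-5 had the widest separation, 6.95, of all 867 autosomal genes with 35% to 65% of tumors at the upper level. Its 72 upper tumors ranged from 10.20 to 11.83 (median 11.18), and its 62 lower tumors from 6.83 to 9.29 (median 8.49). No tumor lay in the gap of 0.92 between them. The step between the level means was 2.60, or 6.08-fold, with an SD of 0.37 within a level.

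Tnfsf10 had the next widest separation, 4.84. Its 65 upper tumors ranged from 8.23 to 10.30 (median 9.11) and its 69 lower tumors from 6.24 to 8.11 (median 7.16). The step was 1.94, or 3.83-fold, and 3 tumors had a probability between 0.05 and 0.95, which is called between the levels here. F13a1 had a step of comparable size, 2.24 (4.71-fold), but a wider spread, with an SD of 0.60 within a level and 22 tumors between the levels. Its 68 upper tumors ranged from 8.26 to 10.63 (median 9.45) and its 66 lower tumors from 5.81 to 8.22 (median 7.18). With a separation of 3.74 it was the least clearly parted of the 9 genes.

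For 5 genes the step was near 2-fold. Apobec3 ranged from 9.30 to 10.17 (median 9.70) in 68 upper tumors and from 7.95 to 9.15 (median 8.68) in 66 lower tumors, a step of 1.01 (2.02-fold). Slc37a1 ranged from 8.75 to 9.81 (median 9.24) in 68 upper tumors and from 7.21 to 8.71 (median 8.25) in 66 lower tumors, a step of 0.99 (1.98-fold). Acyp1 ranged from 8.41 to 9.31 (median 8.87) in 77 upper tumors and from 7.42 to 8.36 (median 8.00) in 57 lower tumors, a step of 0.89 (1.85-fold). These 3 genes had 6, 14 and 7 tumors between the levels. Pot1b ranged from 7.71 to 9.00 (median 8.16) in 76 upper tumors and from 6.87 to 7.70 (median 7.29) in 58 lower tumors, a step of 0.88 (1.84-fold). 3110040N11Rik ranged from 8.35 to 9.56 (median 8.69) in 65 upper tumors and from 7.28 to 8.26 (median 7.87) in 69 lower tumors, a step of 0.86 (1.81-fold). In all members but D17H6S56E-5 the levels met with little gap, from 0.01 for Pot1b to 0.15 for Apobec3.

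Zfp119b was the dimmest member. Its 71 upper tumors ranged from 6.01 to 7.34 (median 6.57), above the floor of 5.72, and its 63 lower tumors from 4.86 to 5.92 (median 5.31). In 58 tumors, all of the lower level, its signal was below the floor, so its lower level could not be told from the signal of genes taken as silent. The fitted means lay 1.25 apart, and with lower tumors set to no less than the floor the upper level was at least 1.82-fold higher. The second probe set of Apobec3, which the levels did not use, had a step of 0.97 and 57 tumors at the upper level, and it put 121 of 134 tumors (90.3%, 95% Wilson interval 84.1% to 94.2%) on the same side as the first. Its levels were less clearly parted, with a separation of 2.79 against 4.45 for the first and an SD within a level of 0.35 against 0.23.

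**Figure D1:**
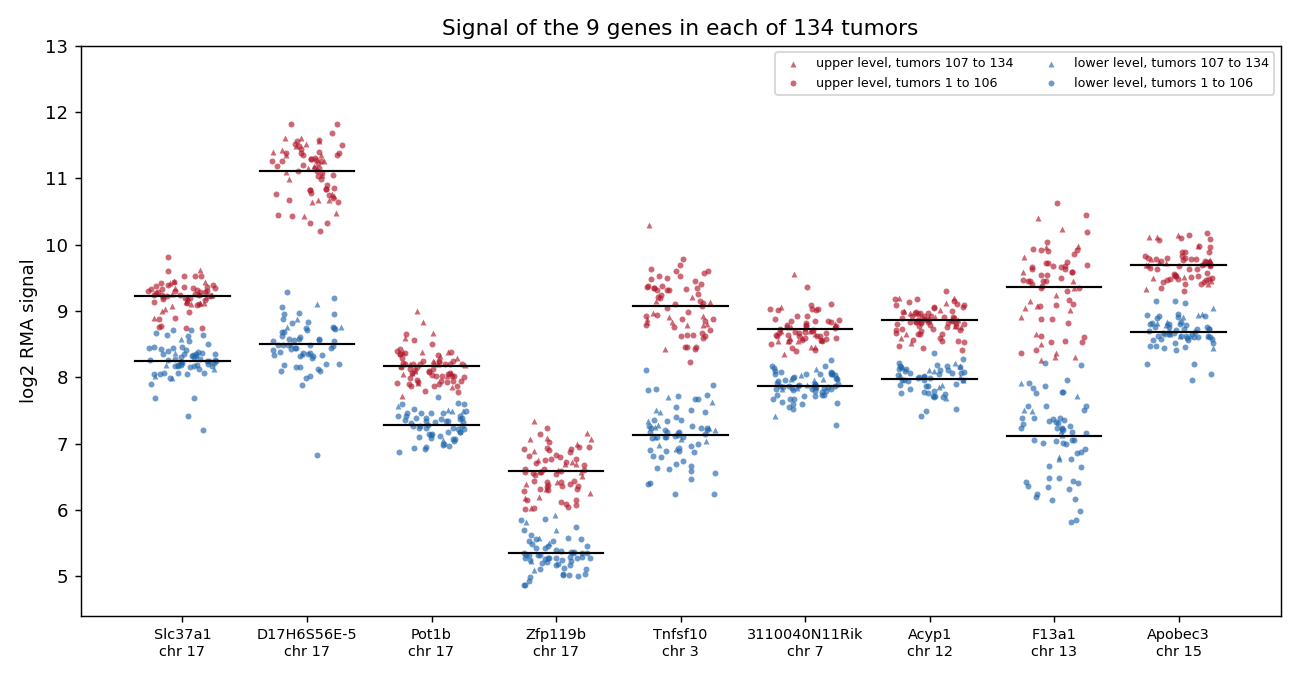
The log2 signal (vertical axis) of each of the 9 genes (horizontal axis) is plotted for 134 tumors, 1 point per tumor, red at the upper and blue at the lower level, with triangles for tumors 107 to 134 and circles for tumors 1 to 106. Black lines are the fitted level means, 11.11 and 8.50 for D17H6S56E-5, whose levels lie farthest apart, and 6.59 and 5.35 for Zfp119b, the dimmest gene.

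The share of tumors at the upper level was close to even for every gene and lay between 48.5% (Tnfsf10 and 3110040N11Rik, 95% Wilson interval 40.2% to 56.9%) and 57.5% (Acyp1, 49.0% to 65.5%). Among the 867 autosomal genes with a share between 35% and 65%, the median separation was 1.40 and the median step 0.19. Only 13 reached the separation of F13a1, and the 4 that were not members were Ifitm2 (4.33, chromosome 7), the MHC class II gene H2-Ea (3.83, chromosome 17), Cntd1 (3.79, chromosome 11) and Amigo2 (3.78, chromosome 15). Just below F13a1 followed Meis1 at 3.68 and C1qtnf1 at 3.59, both on chromosome 11.

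Agreement between the levels was counted over all 36 pairs of the 9 genes. On chromosome 17 the measured genes stood in the order Slc37a1, D17H6S56E-5, Pot1b, Zfp119b, with 117, 265 and 3 measured genes between neighbors. Pot1b and Zfp119b had the same level in 129 of 134 tumors (96.3%, 91.6% to 98.4%), and all 5 exceptions had Pot1b up and Zfp119b down. Slc37a1 and D17H6S56E-5 had the same level in 126 tumors (94.0%, 88.7% to 96.9%). D17H6S56E-5 shared its level with Pot1b in 120 tumors and with Zfp119b in 121, and Slc37a1, the farthest from them, shared it with Pot1b in 116 and with Zfp119b in 117. Over all tumors, the agreement was thus highest for the closest pair and lowest for both pairs that were farthest apart. Without arrays 109 to 120 it was 85.2% to 95.9% over the 6 pairs. With tumors between the levels left out, it was 99.1% for Pot1b and Zfp119b and 95.8% for Slc37a1 and D17H6S56E-5. It was then 91.0% and 91.7% for D17H6S56E-5 with Pot1b and Zfp119b, and 91.0% and 92.7% for Slc37a1 with them. The pairs farthest apart thus stood level with those of D17H6S56E-5 with Pot1b and Zfp119b. They still lay below Pot1b with Zfp119b and below Slc37a1 with D17H6S56E-5.

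The limma test of these pairs, with 1 gene as covariate and the other among all genes tested, passed an adjusted p of 0.05 in both directions for all 6 pairs, with adjusted p between 1.5e-38 and 5.8e-18. For Zfp119b the change was 1.07 ± 0.05 log2 (SE) per step of Pot1b, and for Slc37a1 it was 0.89 ± 0.05 per step of D17H6S56E-5. Read along the chromosome, 61 tumors had the upper level of all 4 genes and 51 the lower level of all 4. The level changed 1 time between neighbors in 17 tumors, of which 6 had the lower level of Slc37a1 and D17H6S56E-5 with the upper level of Pot1b and Zfp119b, and 3 the reverse. It changed 2 times in 5 tumors, in 3 of them through the upper level of Pot1b alone. Pot1b had 12, Slc37a1 14 and Zfp119b 13 tumors between the levels, and a misplaced level and a change along the chromosome cannot be told apart in a single tumor.

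Pairs on different chromosomes agreed about as often as not, except those of F13a1 with the genes of chromosome 17. In 26 such pairs, 62 to 77 tumors (46.3% to 57.5%) had the same level, and no pair passed the threshold in limma (adjusted p between 0.307 and 0.993 in both directions, with 0.0 pairs at an unadjusted p under 0.05). F13a1 on chromosome 13 had the same level as the 4 genes of chromosome 17 in 86 to 91 tumors (64.2% to 67.9%), most often with Zfp119b. Only the pair of F13a1 and Zfp119b passed, with an adjusted p of 0.034 for Zfp119b per step of F13a1 and of 0.012 in the other direction. It had the same level in 19 of 28 tumors numbered 107 to 134 (67.9%) and in 72 of 106 tumors numbered 1 to 106 (67.9%). In tumors 107 to 134, 71.4% had the upper level of F13a1 and 75.0% that of Zfp119b, against 45.3% and 47.2% in tumors 1 to 106. The agreement that such shares alone would give thus differs between the runs. The adjusted p was 0.91 and 0.99 within tumors 107 to 134, 0.14 and 0.061 within tumors 1 to 106, 0.11 and 0.049 with the run as a covariate, 0.080 and 0.029 without arrays 109 to 120, and 0.063 and 0.13 when the level was tested apart from the deviation within it.

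**Figure D2:**
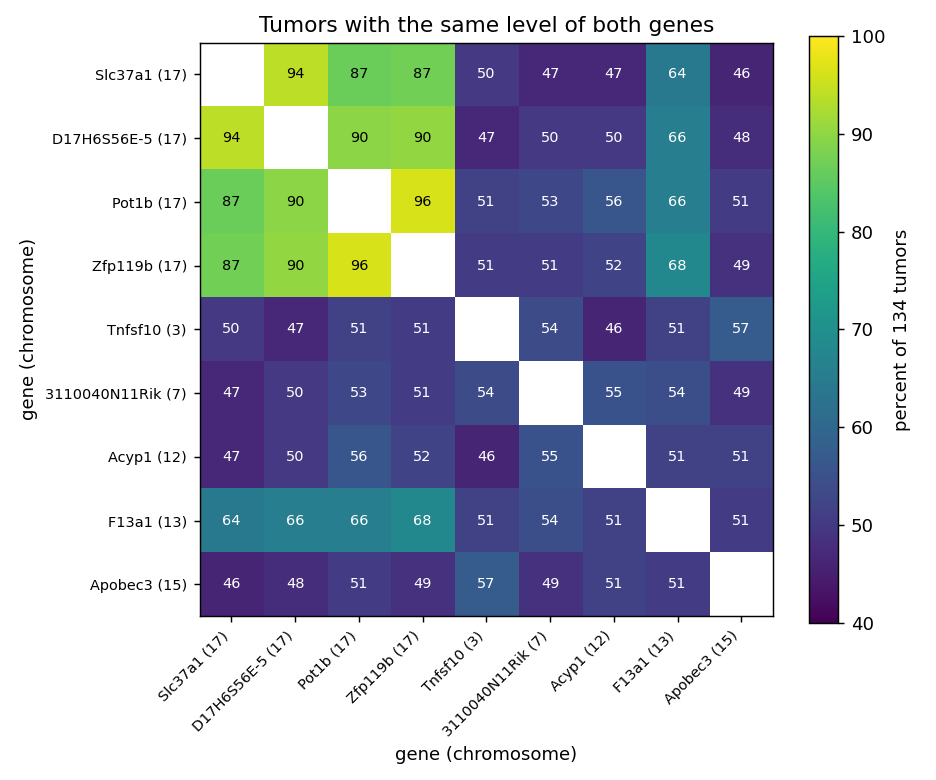
Each cell gives the percent of 134 tumors in which the genes of its row and column had the same level, with the chromosome of each gene in brackets and the color scale from 40% to 100%. The 4 genes of chromosome 17 form a block between 86.6% and 96.3%, F13a1 shared its level with them in 64.2% to 67.9%, and the other pairs lie between 46.3% and 57.5%.

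The share of tumors at the upper level differed between the runs of label numbers for the genes of chromosome 17. D17H6S56E-5 was at its upper level in 22 of 28 tumors numbered 107 to 134 (78.6%, 60.5% to 89.8%) and in 50 of 106 tumors numbered 1 to 106 (47.2%, 37.9% to 56.6%). For Pot1b the shares were 82.1% and 50.0%, for Slc37a1 75.0% and 44.3%, for Zfp119b 75.0% and 47.2%, and for F13a1 71.4% and 45.3%, in the same order of runs. The 4 genes of chromosome 17 repeat the same tumors and are not separate observations of this difference. Without arrays 109 to 120, 16 tumors were left of the later run, and the share was 75.0% for D17H6S56E-5 and F13a1 and 87.5% for Pot1b.

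In limma, 2865 of 19938 genes (14.4%) differed between the runs at an adjusted p under 0.05. D17H6S56E-5, Pot1b and Zfp119b were among them, higher in tumors 107 to 134 by 0.88 ± 0.28 (SE, adjusted p = 0.020), 0.41 ± 0.10 (0.0020) and 0.49 ± 0.14 (0.011). The differences of the other 6 members ranged from 0.07 for Tnfsf10 to 0.52 for F13a1, with adjusted p between 0.079 and 0.87. The upper level of D17H6S56E-5 averaged 11.11 in tumors 107 to 134 and 11.10 in tumors 1 to 106, and its lower level 8.72 and 8.48. What the runs stand for is not given in the sources used here, and their part in the shares was not tested.

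**Figure D3:**
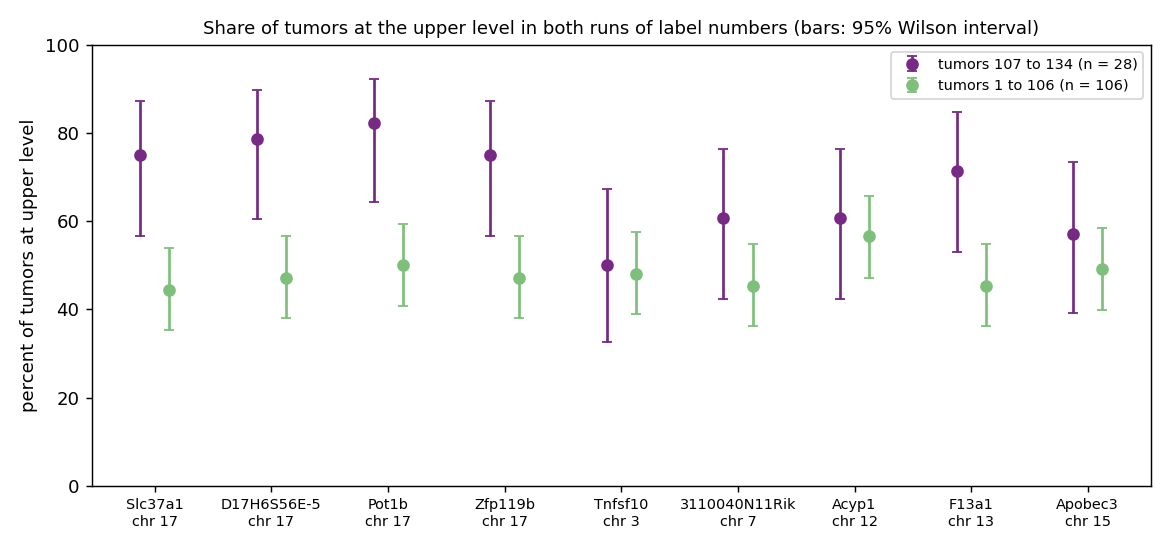
The percent of tumors at the upper level (vertical axis) is plotted for each gene, purple for 28 tumors numbered 107 to 134 and green for 106 tumors numbered 1 to 106, with 95% Wilson intervals as bars. The 4 genes of chromosome 17 and F13a1 stand at 71.4% to 82.1% in the later run and at 44.3% to 50.0% in the earlier run, while Tnfsf10 is at 50.0% and 48.1%.

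Of the 12 array pairs from 109 with 97 to 120 with 108, the levels of all 9 members were the same in 3 pairs, and in the others 1 to 7 members had the same level. The mean was 5.67 members, against 4.49 over all 8911 pairs of the 134 tumors, of which 1.26% had all 9 in common. The members' levels thus differed in 9 of these 12 pairs.

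The genes that moved with each member were then sought with limma, 1 fit per member over the 19937 other genes. The covariate was the member's log2 value divided by its step, so a coefficient is the log2 change per step from the lower to the upper level. A second fit held the probability of the upper level and the deviation of a tumor from the mean of its level side by side, and tested each. The first is called the whole-value fit, and the tests of the second the level test and the deviation test. A change given per step is that of the whole-value fit. Position was counted in measured genes along the chromosome.

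For D17H6S56E-5, 61 of 939 other genes of chromosome 17 (6.50%) passed the whole-value fit, against 0.487% of all genes. Of these 37 rose and 24 fell with it. The 3 members on this chromosome were among its 6 leading genes. H2-Ea, the alpha chain of the class II molecule I-E, which several mouse MHC haplotypes do not make, rose most, by 1.52 ± 0.08 (SE) log2 per step (adjusted p = 2.5e-35), at 34 genes away. Vars, a valyl-tRNA synthetase and the next measured gene, rose by 0.46 ± 0.04 (9.9e-22), and H2-M2, an MHC class I gene 102 genes away, by 0.94 ± 0.07 (3.5e-21). The neighbor on the other side, Lsm2 of the RNA-binding Sm-like family, had 0.07 ± 0.03 (adjusted p = 0.46). The level test passed 64 genes of chromosome 17 and 78 in all (0.391%), so 14 lay elsewhere.

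Slc37a1, Pot1b and Zfp119b passed many more genes in the whole-value fit, most of them on other chromosomes. On chromosome 17 there were 136 for Slc37a1 (14.5%), 138 for Pot1b (14.7%) and 117 for Zfp119b (12.5%), against 5.92%, 5.77% and 3.03% of all genes. With the label run as a covariate, the share of all genes fell to 1.39% for Pot1b (278 genes) and 0.792% for Zfp119b (158 genes). For Slc37a1 it was then 7.36% (1467 genes). The level test, by contrast, passed 57, 57 and 54 genes of chromosome 17 and 13, 11 and 12 on all other chromosomes, or 0.351%, 0.341% and 0.331% of all genes. In the whole-value fit on chromosome 17, Btbd9 rose by 0.41 ± 0.03 per step of Slc37a1 (adjusted p = 3.4e-28), 12 genes away. In the level test it rose by 0.37 (5.2e-20). Glo1, the detoxifying enzyme glyoxalase, rose by 0.62 ± 0.06 per step of Zfp119b (1.1e-16), 399 genes away. H2-Ea rose with all 3, by 1.23 ± 0.10 per step of Slc37a1, 1.06 ± 0.11 of Pot1b and 1.03 ± 0.11 of Zfp119b. Neither measured neighbor of Pot1b, Vmn2r118 and Adgre4, nor of Zfp119b, Zfp959 and Ebi3, nor of Slc37a1, Rsph1 and Pde9a, passed the whole-value fit or the level test. Pde9a passed the level test of Slc37a1 with an adjusted p of 0.046 without tumor 73 and of 0.047 without arrays 109 to 120.

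For Tnfsf10, 69 of 944 genes of chromosome 3 passed the whole-value fit (7.31%), against 2.68% of all genes, or 534 genes. The count over all genes was 104 with the macrophage markers as a covariate and 209 after a further quantile normalization, and on chromosome 3 it was 36 and 41. The level test passed 26 of them and 42 in all (0.211%), and without arrays 109 to 120 it passed 20 in all. The leading genes were Mfsd8, a lysosomal membrane protein, at 0.40 ± 0.05 per step (adjusted p = 3.8e-11), Tiparp, an ADP-ribosylating enzyme, at 0.51 ± 0.07 (6.9e-08), and Alg5, a glucosyltransferase of N-glycan assembly, at 0.31 ± 0.04 (3.2e-07). They stood 76, 168 and 112 genes after Tnfsf10, the side that holds most of chromosome 3, as Tnfsf10 is its measured gene 63 of 945. On the other side, Zc2hc1a, 57 genes before it, fell by 0.23 ± 0.04 (2.2e-04). Of the next neighbors, Ghsr, the ghrelin receptor, fell by 0.08 with an adjusted p of 0.046 in the whole-value fit and 0.28 in the level test, and Nceh1 had -0.04 (adjusted p = 0.71).

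Of 8 measured genes for TRAIL receptors and death signaling, 1 passed the whole-value fit with Tnfsf10, against 2.68% of all genes. It was the adapter Fadd, which rose by 0.14 ± 0.03 per step (adjusted p = 0.0071). The median coefficient of the 8 was 0.02, against -0.01 over all genes. None of the 8 passed the level test in limma, which 0.211% of all genes passed, and 1 had an unadjusted p under 0.05.

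For Apobec3, 40 of 751 genes of chromosome 15 passed (5.33%), against 0.226% of all genes, and 5 lay elsewhere. The level test passed 47 of chromosome 15 and 84 in all (0.421%), and without arrays 109 to 120 it passed 51 in all. Both next neighbors rose with Apobec3, D730005E14Rik by 0.24 ± 0.02 per step (adjusted p = 1.4e-13) and the Polycomb gene Cbx7 by 0.23 ± 0.03 (1.9e-06). Both overlap Apobec3 in the RefSeq annotation, and reading of a shared transcript was not tested. Cerk, the ceramide kinase, rose by 0.45 ± 0.06 (6.2e-09), 108 genes away, and the adhesion gene Amigo2, itself a gene with separate levels, by 0.84 ± 0.12 (2.3e-07), 173 genes away. On chromosome 4, Fv1, known for blocking murine leukemia virus capsids, fell by 0.18 ± 0.04 (adjusted p = 0.0060 in the whole-value fit and 0.0031 in the level test). None of the 3 other measured deaminases of the family passed with Apobec3 in limma, and 1 had an unadjusted p under 0.05.

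For F13a1, 31 of 734 genes of chromosome 13 passed (4.22%), against 0.266% of all genes. The level test passed 16 of chromosome 13 and 17 in all (0.0853%), the fewest of any member. Eci3, a peroxisomal enzyme of fatty acid oxidation 8 genes away, rose by 0.27 ± 0.04 per step (adjusted p = 6.7e-06). Dsp, the desmosomal protein desmoplakin 6 genes away, fell by 0.55 ± 0.10 (4.9e-04), and the histone gene H4c4, 99 genes away, fell by 0.32 ± 0.06 (4.8e-04). Of the next neighbors, Ly86 fell by 0.40 in the level test (adjusted p = 0.045, and 0.064 without arrays 109 to 120). It did not pass the whole-value fit (0.12), and Nrn1 passed neither (0.74 and 0.83). The only gene elsewhere that passed the level test was Ifngr2, a chain of the interferon gamma receptor on chromosome 16, which fell by 0.20 between the levels (adjusted p = 8.1e-04). None of the 9 macrophage markers passed the whole-value fit or the level test with F13a1, at 2 and 0 markers with an unadjusted p under 0.05, and the 1 that passed the deviation test was Mrc1, which rose by 0.39 per log2 unit of the deviation (adjusted p = 0.046, and 0.062 without tumor 73).

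For Acyp1, 35 of 652 genes of chromosome 12 passed (5.37%), against 0.236% of all genes. The level test passed 43 of them and 48 in all (0.241%). Susd6 rose by 0.46 ± 0.04 per step (adjusted p = 2.1e-16), 56 genes away, and Arg2, the mitochondrial arginase, by 0.60 ± 0.09 (1.1e-06), 72 genes away. Dcaf4, 41 genes away, fell by 0.35 ± 0.05 (3.3e-06), and the nucleotide-hydrolyzing enzyme Entpd5, 21 genes away, fell by 0.22 ± 0.04 (1.6e-04). Neither neighbor passed: Mlh3, a mismatch repair gene, had 0.11 ± 0.03 (adjusted p = 0.16), and Zc2hc1c, which overlaps Acyp1 in the annotation, had -0.03 ± 0.03 (0.84). The only other acylphosphatase measured, Acyp2, did not pass.

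For 3110040N11Rik, 63 of 1737 genes of chromosome 7 passed (3.63%), against 0.652% of all genes. The level test passed 55 of them and 58 in all (0.291%). Pde8a, a phosphodiesterase of cyclic AMP 8 genes away, rose by 0.63 ± 0.07 per step (adjusted p = 1.2e-12), and Pgap2, which acts in the maturation of lipid anchors, by 0.37 ± 0.04 (4.1e-12), 170 genes away. Uros, an enzyme of heme synthesis 679 genes away, rose by 0.52 ± 0.07 (1.0e-08). The neighbors Homer2 and Btbd1 had 0.10 and 0.09 per step, with adjusted p of 0.66 and 0.22.

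**Figure D4:**
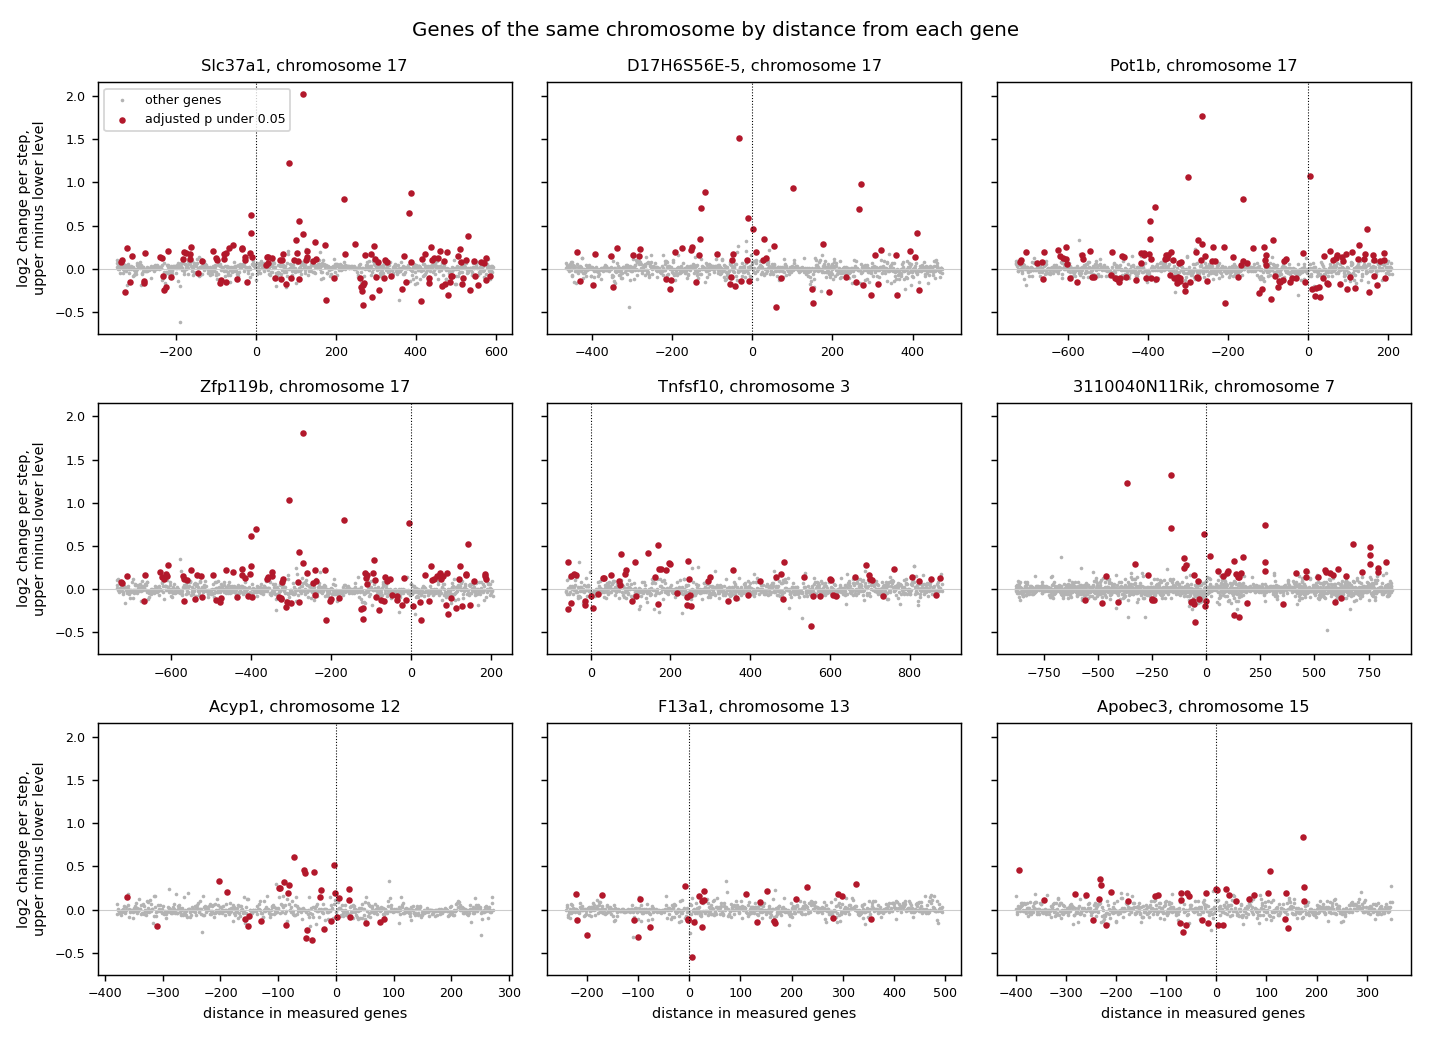
For each of the 9 genes, every other measured gene of its chromosome is plotted by its distance in measured genes (horizontal axis, negative before the gene) and its log2 change per step in the whole-value fit (vertical axis), red where the adjusted p was under 0.05. The points highest above 0 around D17H6S56E-5 include H2-Ea at 1.52, and red points lie on both sides of 0.

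Over the 9 genes together, the level test passed 25 of 180 genes within 10 positions (13.9%), 63 of 862 at 51 to 100 positions (7.31%), 59 of 2511 beyond 400 positions (2.35%) and 112 of 170859 on other chromosomes (0.0656%). The whole-value fit showed a shallower decline, from 28 of 180 (15.6%) within 10 positions to 155 of 2511 (6.17%) beyond 400 positions and 3153 of 170859 (1.85%) on other chromosomes. The deviation test showed none, with 26 of 180 (14.4%) within 10 positions, 291 of 2511 (11.6%) beyond 400 positions and 20496 of 170859 (12.0%) on other chromosomes. The 4 members of chromosome 17 were set against the same neighbors, so these counts are not of separate genes. Of the 18 next neighbors of the 9 genes, 4 passed the whole-value fit and 4 the level test, and 4 overlap their member in the annotation.

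**Figure D5:**
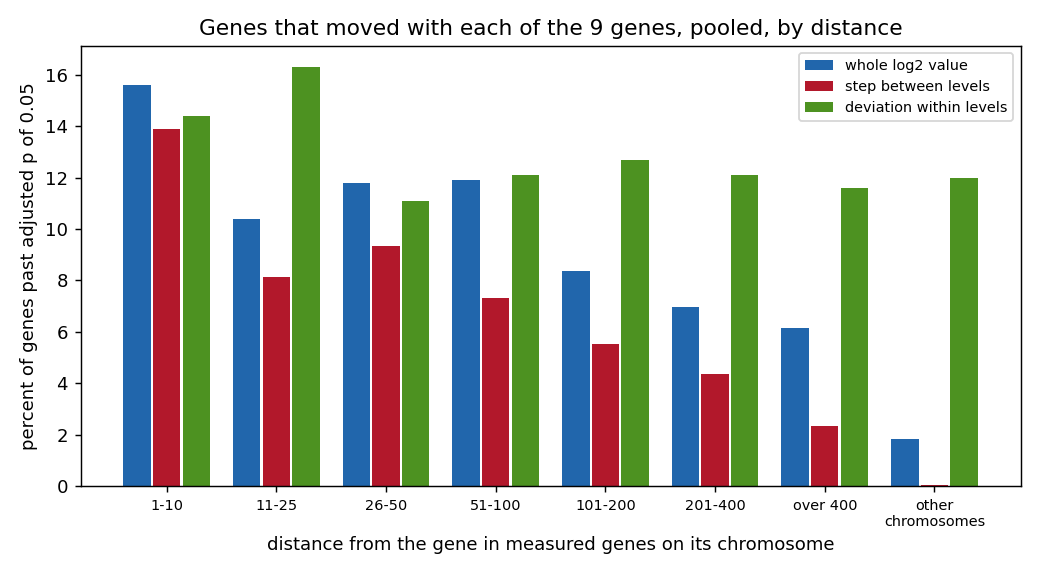
Bars give the percent of genes past an adjusted p of 0.05 (vertical axis) by distance from the gene in measured genes, with other chromosomes at the right, pooled over the 9 genes, blue for the whole-value fit, red for the level test and green for the deviation test. The level test falls from 13.9% within 10 positions to 0.0656% on other chromosomes, while the deviation test stays at 11.1% to 16.3%.

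The deviation within the levels moved with genes of the whole genome. It passed 4920 genes for Slc37a1 (24.7%), 4539 for Acyp1 (22.8%), 3019 for Pot1b (15.1%), 2574 for Zfp119b (12.9%), 2374 for 3110040N11Rik (11.9%), 1979 for Apobec3 (9.93%) and 1749 for D17H6S56E-5 (8.77%). For Tnfsf10 and F13a1 it passed 215 (1.08%) and 173 (0.868%). A coefficient of this test is the log2 change per log2 unit of the deviation, not per step. Tumor 73 had the lowest signal of D17H6S56E-5, 6.83, where the next tumor had 7.88, and of Slc37a1, 7.21, where the next had 7.41. Without it the deviation of D17H6S56E-5 passed 4 genes (0.0201%) and that of Slc37a1 3070 (15.4%), so nearly all calls of D17H6S56E-5 rested on 1 tumor. The counts of the other 7 members moved by less than 1.5 times without it. Without arrays 109 to 120 that of Tnfsf10 was 63 (0.316%).

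For Slc37a1, 24 of 86 cell type markers passed the deviation test (27.9%), near the 24.7% of all genes, and without tumor 73 it was 13 of 86 (15.1%), against 15.4% of all genes. Of these 13, 2 rose and 11 fell, among the latter the proliferation markers Top2a by 0.64 (adjusted p = 0.0023) and Ccnb2 by 0.55 (0.0084). Neither of these markers passed or fell when tumor 73 was kept, at 0.07 for Top2a (adjusted p = 0.80) and 0.04 for Ccnb2 (0.87). With all tumors, the endothelial marker Emcn fell by 1.07 per log2 unit (adjusted p = 2.0e-09, and 2.1e-05 without tumor 73). The cadherin Cdh5 fell by 0.90 (3.4e-06, and 0.0045 without it). Pecam1, Kdr and Tek of the same list fell too (1.8e-04, 3.4e-04 and 0.0035), but did not pass without tumor 73 (0.062, 0.25 and 0.48). All 5 adipocyte markers fell, among them the adipokine Adipoq by 1.38 (0.0069), but 0 of the 5 passed in limma without tumor 73, none of them at an unadjusted p under 0.05. Arfgef3 on chromosome 10 rose by 1.12 (1.2e-11) and Gulp1, an adapter of phagocytosis on chromosome 1, fell by 1.13 (4.0e-14).

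For Zfp119b, 21 of 86 markers passed the deviation test (24.4%), against 12.9% of all genes, and 19 of 86 without tumor 73, against 12.6%. Its deviation went with lower signal of 5 of 7 fibroblast markers, among them Col1a1 by -0.64 (adjusted p = 0.0026), 3 of 5 muscle markers, 3 of 5 adipocyte markers and 3 of 6 endothelial markers, and with higher signal of 3 of 7 proliferation markers. The signal of Zfp119b was below the floor in 58 of its 63 lower tumors, where a deviation of background signal and one of transcript amount cannot be told apart. The part of these cell types in the deviation was not tested. For D17H6S56E-5, 19 of 86 passed (22.1%), against 8.77% of all genes, 6 of them proliferation markers, and 0 passed in limma without tumor 73, where 11 had an unadjusted p under 0.05.

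Of the other members, Pot1b had 7 of 86 (8.14%, against 15.1% of all genes), Acyp1 4 (4.65%, against 22.8%), Apobec3 4 (4.65%, against 9.93%) and 3110040N11Rik 3 (3.49%, against 11.9%). These 4 shares lay below those of all genes. F13a1 had 2 (2.33%, against 0.868%) and Tnfsf10 0, against 1.08%, with 6 of 86 at an unadjusted p under 0.05.

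None of the 86 markers passed the level test in limma for any of the 9 genes, with 1 to 12 markers per gene at an unadjusted p under 0.05. As 0.0853% to 0.421% of all genes passed it, a count of 0 is near the share of all genes. In the whole-value fit, 5 of 86 passed with Slc37a1 (5.81%, against 5.92% of all genes). With Acyp1 1 passed (1.16%, against 0.236%), the T cell marker Cd8a, which fell by 0.12 (adjusted p = 0.042, and 0.083 without arrays 109 to 120). It was 0 in limma with the other 7 genes, which had 9 to 15 at an unadjusted p under 0.05.

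Among related genes, Pot1a, the sister of Pot1b on another chromosome, rose by 0.20 ± 0.03 per step of Pot1b (adjusted p = 1e-05), and Terf2, another shelterin protein, by 0.10 ± 0.03 (0.014), so 2 of 9 shelterin and partner genes passed the whole-value fit, against 5.77% of all genes. Neither passed the level test, in which 2 of the 9 genes had an unadjusted p under 0.05. In the deviation test, which 15.1% of all genes passed with Pot1b, Pot1a had 0.57 (1.4e-06), Terf1 0.33 (0.0070) and Terf2 0.28 (0.0051). Cross-reading of Pot1a and Pot1b by the probes was not tested. Slc37a3, a member of the family of Slc37a1, rose by 0.15 ± 0.04 per step of Slc37a1 (adjusted p = 0.0035) and by 0.58 per log2 unit of its deviation (1.4e-06), while Slc37a2 and Slc37a4 did not pass. Of all genes, 5.92% passed the whole-value fit with Slc37a1 and 24.7% the deviation test. The zinc finger paralog Zfp119a did not pass the whole-value fit or the level test with Zfp119b. It rose by 0.31 with its deviation (0.030), a test that 12.9% of all genes passed.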

How the data were processed

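The authors deposited log2 values, summarised per probe set with RMA; the RMA version and the arrays summarised together are not given in the sources used here. Of 35556 probe sets, 21789 had 1 gene symbol in the platform annotation, which gave 19938 genes, each through the probe set with the highest mean. Chromosome and gene order came from RefSeq GRCm38.p6, where 19919 genes were found. The files name no build, so the table served for order and for the printed promoters. The members and lists were chosen with earlier results of these data known.

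Levels came from a mixture of 2 normal distributions with a common SD, fitted by 400 rounds of expectation-maximization started at the median, with 95% Wilson intervals for shares, which cover counting error only. Associations were fitted with limma 3.58.1 in R 4.3.3, 1 fit per member, with Benjamini-Hochberg adjustment over all other genes and a threshold of 0.05, and the fit was checked on simulated data. Named were, per member, the 6 genes of its chromosome and the 3 of other chromosomes with the smallest p, its nearest neighbors, the 5 genes that led the deviation test, genes of the related lists past the threshold and the 8 non-members with the widest separation, and of these the text gives a part. Alternatives were other probe set rules, normalization, boundaries, covariates, each run alone and arrays or tumors left out. The mixture and the counts were run in Python 3.11.15 (numpy 2.4.6, pandas 2.3.3). The number of arrays limits the precision. Genotypes, other crosses and outcome were not analysed here.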

Additional observations from a re-analysis of the deposited data

How the results depend on the processing

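Of 63 recomputed shares at the upper level 56 moved by less than their interval, and of 60 recomputed agreements 55. Of 108 recomputed counts in the whole-value fit on a member's own chromosome 84, and of 108 counts over all genes 73, stayed within 1.5 times their value. Of 18 counts each in the level test and the deviation test, taken without tumor 73 or without arrays 109 to 120, 16 and 15 did.

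With the level tested apart from the deviation, the counts on the own chromosome were 16 for F13a1, 57 for Pot1b, 57 for Slc37a1, 26 for Tnfsf10 and 54 for Zfp119b, and those over all genes 58 for 3110040N11Rik, 84 for Apobec3, 17 for F13a1, 68 for Pot1b, 70 for Slc37a1, 42 for Tnfsf10 and 66 for Zfp119b. With the label run as a covariate, Pot1b had 80 genes on chromosome 17 and 278 in all, and Zfp119b 76 and 158. The following were chosen after the data were seen, apart from the quantile normalization on chromosome 3 and tumor 73 in the whole-value fit. With the macrophage markers as a covariate, Tnfsf10 had 36 genes on chromosome 3 and 104 in all, Zfp119b 993 in all and 3110040N11Rik 76 in all. After a further quantile normalization, Tnfsf10 had 41 on chromosome 3 and 209 in all, and Slc37a1 1876 in all. With ranks Zfp119b had 1170, and without dim genes 3110040N11Rik had 199. Without tumor 73, Slc37a1 had 776 genes in all, and the deviation test passed 3070 for Slc37a1 and 4 for D17H6S56E-5. Without arrays 109 to 120, Pot1b had 717 and Zfp119b 371, the level test passed 20 for Tnfsf10 and 51 for Apobec3, and the deviation test 63 for Tnfsf10.

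In tumors 107 to 134 alone, fewer tumors entered, and the counts on the own chromosome were 5 for 3110040N11Rik, 4 for D17H6S56E-5, 3 for Pot1b, 6 for Slc37a1, 1 for Tnfsf10 and 3 for Zfp119b. Over all genes they were 9, 4, 7, 7, 1 and 3. Acyp1, Apobec3 and F13a1 had 0 in limma on both counts, with 517, 2269 and 1399 genes at an unadjusted p under 0.05. In tumors 1 to 106 alone, the counts on the own chromosome were 32 for 3110040N11Rik, 20 for Acyp1, 17 for F13a1, 53 for Pot1b, 44 for Tnfsf10 and 60 for Zfp119b. Over all genes they were 37 for 3110040N11Rik, 25 for Acyp1, 64 for D17H6S56E-5, 24 for F13a1, 89 for Pot1b, 250 for Tnfsf10 and 120 for Zfp119b.

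Levels fitted in tumors 107 to 134 alone put 60.7% at the upper level of 3110040N11Rik and of F13a1, 78.6% of D17H6S56E-5, 82.1% of Pot1b, 75.0% of Slc37a1 and 71.4% of Zfp119b, and those fitted in tumors 1 to 106 alone put 41.5% at that of Slc37a1. Within tumors 107 to 134 the agreement was 96.4% for D17H6S56E-5 and Zfp119b, 92.9% for Pot1b and Slc37a1 and 100.0% for Slc37a1 and Zfp119b. With tumors between the levels left out it was 99.1% for Pot1b and Zfp119b and 92.7% for Slc37a1 and Zfp119b. The cause of these shifts was not tested. No paired analysis was possible because the series holds 1 group.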

Other observations

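Over the 50 measured genes on either side, the mean variance shared with a member was 2.87% for 3110040N11Rik to 4.59% for Slc37a1, below the median of 4.88% over autosomal genes. This difference was not tested.

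The number of members at the upper level ran from 0 in 2 tumors to 9 in 5 tumors, with 22 tumors at 3 and 21 at 6, and 4 of the 9 members lie on chromosome 17, where they are not separate observations.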
